A study of Mus musculus with 6 samples.

Results

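The antioxidant and glutathione genes compared here are 33 mouse genes that make, recycle or use the small thiol glutathione, or that remove reactive oxygen by other routes. They were taken from a list of names, and all probes annotated with one of these symbols, or with an older synonym, were read. Of the 33 genes, 30 had at least 1 probe on the array and 27 had a probe bright enough to test, through 45 of 63 probes. The whole array held 45281 probes, of which 14902 were tested, for 8942 named genes. No probe was named for Gsr, which regenerates glutathione, for G6pdx, which supplies NADPH, or for the peroxiredoxin Prdx6, and these genes were not analysed here.

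RNA of the lens, taken from mice at postnatal day 30, was hybridised to Illumina bead arrays, on which the brightness of a probe reports the abundance of the transcripts it matches. The mice were Tdrd7 heterozygous (3 samples) or Tdrd7 null (3 samples), and both groups had the same mixed background of C57BL/6J with C3A.Blia. The question is which transcripts of the lens differ when the remaining copy of Tdrd7 is also lost. The control mice therefore carry 1 altered copy themselves, and the labels state neither the allele nor how many animals went into a sample. In what follows, arrays 1 to 3 are heterozygous and arrays 4 to 6 are null, in the order of the deposited table.

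Glutathione is present at high concentration in the lens, where it keeps crystallin thiols reduced. It is built from glutamate, cysteine and glycine, spent by peroxidases and transferases, and regenerated with NADPH. Oxidised, cross-linked crystallins are a known feature of cataract. Many of these genes are induced by the transcription factor Nfe2l2 (Nrf2), which Keap1 holds inactive until electrophiles or oxidants modify it, and which binds a short sequence called the antioxidant response element.

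Promoters are shown for the 2 members whose groups did not overlap at the brightest probe, Gstp1 and Srxn1, for the glutathione synthesis gene with the widest difference, Gclm, and for Gstp2, the paralogue that lies beside Gstp1. They come from RefSeq (build GRCm38.p6) and run from 250 bases before to 50 bases after the annotated start, 5′ to 3′ on the gene's own strand. Gstp1 is at chr19:4037863-4038162, minus strand, Gstp2 at chr19:4042172-4042471, minus strand, Gclm at chr3:122245307-122245606, plus strand, and Srxn1 at chr2:152105274-152105573, plus strand. Capitals mark matches, on either strand, to TGACNNNGC, the core letters of the antioxidant response element, or to TGAGTCA, the letters of an AP-1 site.
Gstp1: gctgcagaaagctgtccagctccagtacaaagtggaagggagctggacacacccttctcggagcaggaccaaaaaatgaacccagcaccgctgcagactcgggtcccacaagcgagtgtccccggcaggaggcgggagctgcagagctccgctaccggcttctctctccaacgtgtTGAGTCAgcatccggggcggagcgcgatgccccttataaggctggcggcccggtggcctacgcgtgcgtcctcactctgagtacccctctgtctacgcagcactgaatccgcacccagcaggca
Gstp2: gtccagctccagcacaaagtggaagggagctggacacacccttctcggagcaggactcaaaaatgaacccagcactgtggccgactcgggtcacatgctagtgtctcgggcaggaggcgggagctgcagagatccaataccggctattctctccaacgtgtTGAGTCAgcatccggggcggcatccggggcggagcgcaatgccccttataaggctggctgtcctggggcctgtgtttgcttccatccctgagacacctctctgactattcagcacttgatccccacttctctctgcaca
Gclm: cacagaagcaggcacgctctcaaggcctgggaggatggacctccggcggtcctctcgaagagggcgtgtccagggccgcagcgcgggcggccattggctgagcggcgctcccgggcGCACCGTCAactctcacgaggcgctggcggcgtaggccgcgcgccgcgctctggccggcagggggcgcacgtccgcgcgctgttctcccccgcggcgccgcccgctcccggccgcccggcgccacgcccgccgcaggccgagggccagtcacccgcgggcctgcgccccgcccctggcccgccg
Srxn1: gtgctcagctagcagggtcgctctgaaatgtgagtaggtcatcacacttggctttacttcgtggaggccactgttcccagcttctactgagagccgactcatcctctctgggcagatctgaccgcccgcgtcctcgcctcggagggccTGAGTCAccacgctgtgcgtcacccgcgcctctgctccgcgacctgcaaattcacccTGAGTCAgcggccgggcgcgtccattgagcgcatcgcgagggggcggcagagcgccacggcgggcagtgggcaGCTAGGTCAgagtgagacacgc

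The Gstp1 and Gstp2 windows each held TGAGTCA once, at −74 to −68 and −89 to −83 from the start, and were identical at 246 of 281 aligned bases (87.5%). Srxn1 held TGAGTCA at −102 to −96 and at −45 to −39, and TGACNNNGC on the minus strand at 29 to 37. In Gstp1, in Gstp2 and at −45 to −39 in Srxn1, TGAGTCA is followed by GC. Such a site differs from TGACNNNGC only in a G for the C after TGA, and was not counted as a match to it. Gclm held TGACNNNGC on the minus strand at −134 to −126. Among 27 members with a promoter in the table, 9 held TGACNNNGC (33.3%), against 14.0% of 27025 genes with such a window. These were Gclm, G6pdx, Gsta3, Txnrd1, Srxn1, Prdx1, Sod1, Nfe2l2 and Mt2, several of them textbook Nfe2l2 targets. TGAGTCA, searched after the sequences had been seen, was held by 5 of 27 (18.5%: Glrx, Gstp1, Srxn1, Prdx1 and Mt2) against 5.95% of genes, and can overlap TGACNNNGC, as it did in Prdx1 and Mt2. The metal response element letters TGCACNC or TGCGCNC, searched because of the metallothioneins, were in 8 of 27 members (29.6%) and in 28.2% of genes. The 7 tested members with TGACNNNGC had a median difference of 0.22 and the 17 tested members without it 0.10. With and without TGAGTCA the medians were 0.62 (5 members) and 0.08 (19 members). With and without the metal response element letters they were 0.58 (6 members) and 0.07 (18 members). These splits carry no test. A match is a description of letters, not of binding.

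No antioxidant or glutathione gene passed the test in either direction. With limma and Benjamini-Hochberg adjustment over all 14902 probes, 0 of 27 members had an adjusted p under 0.05, where 18 of 8942 genes did (0.201%). At an unadjusted p under 0.05 there was 1 member, Gstp1, which is 3.70% of 27 against 9.14% of all genes. All values are log2 intensities of the gene's brightest probe, and differences are null minus heterozygous with their SE and n = 3 per group. The null mean was above the heterozygous mean for 18 members and below it for 9, where 53.3% of all genes were above. This count is not free of the filter on dim probes, which kept 7 members detected on more null than heterozygous arrays. The median difference was 0.10 over members and 0.02 over all genes tested. Differences ran from −0.57 (Hmox1) to 1.00 (Glrx), with adjusted p from 0.392 to 0.997. Groups did not overlap for 2 members, Gstp1 and Srxn1, both higher in null lenses, which is 7.41%, where 7.71% of all genes were non-overlapping and higher. No member was non-overlapping and lower, where 7.74% of all genes were. Counted by gene, the share of members called was no larger than the background.

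**Figure D1:**
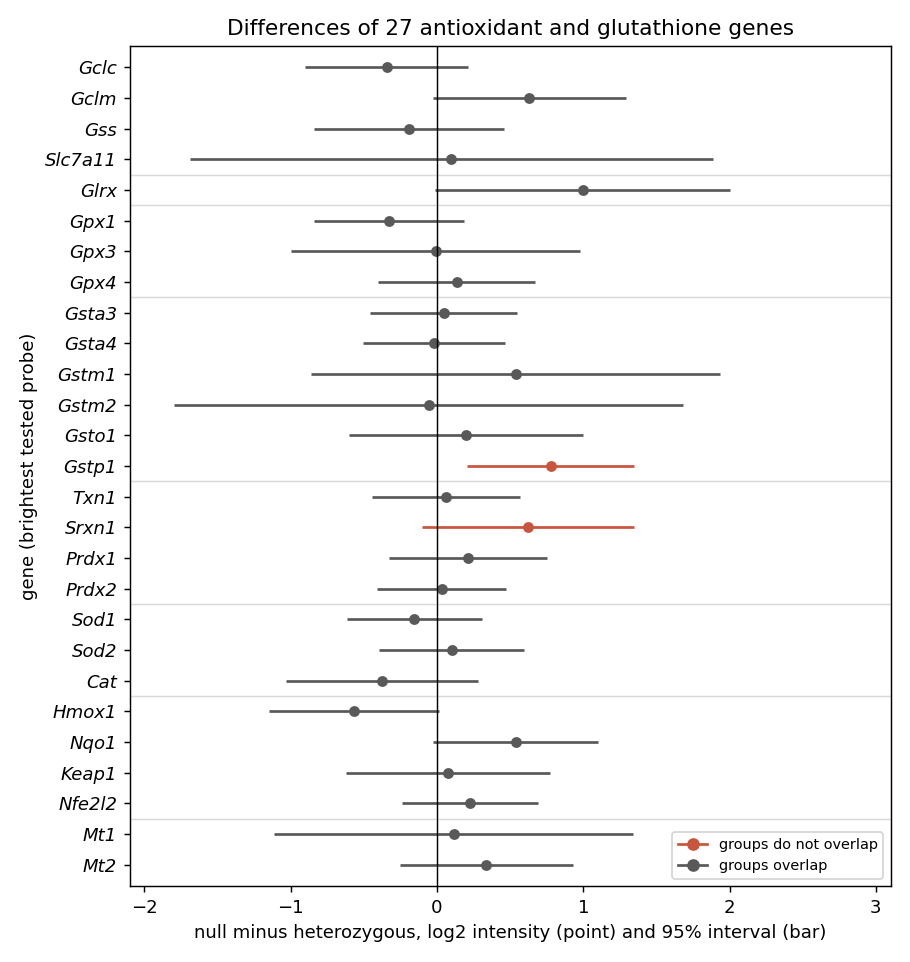
Null minus heterozygous log2 intensity of the brightest tested probe of 27 genes (points) with 95% intervals from limma (bars), grouped by role. Gstp1 has an interval above 0, from 0.21 to 1.35, the intervals of the other 26 genes include 0, and Gstp1 and Srxn1 are the 2 genes drawn as non-overlapping.

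The intervals show what these arrays could and could not resolve. For 15 of 27 members the 95% interval lay within 1 of 0 on the log2 scale, that is within a 2-fold difference either way, and for 12 it reached further. The 15 include Gpx3, Gsta3, Nfe2l2 and Mt2, which were near background and not detected on every array. Background correction and offset change the size of differences for such probes, so these intervals do not bound the change in transcript. The SD over the 3 arrays of a group had a median of 0.33 in heterozygous and 0.30 in null lenses for members, against 0.30 and 0.26 for all genes. On simulated arrays of the same size, the fit recovered 15% of probes changed by 1 and 76% of probes changed by 2. The simulated noise was drawn separately for each probe and array. No simulated array therefore stood apart as a whole, unlike the real arrays described next, and the recovery on the real arrays may differ.

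A pair of arrays stood apart from the rest. Heterozygous array 2 correlated with no other array above 0.946 and null array 5 with none above 0.962, while each other array reached at least 0.981 with its closest. The targeted gene was as labelled: Tdrd7 was 13.99 ± 0.22 (SD) in heterozygous and 10.11 ± 0.43 in null lenses, 14.7-fold lower (limma adjusted p = 0.00139). Lens fibre markers, 8 of 8 tested detected on all arrays, summed to a linear intensity of 259222 to 270622 in heterozygous and 250925 to 268341 in null lenses. These probes are among the brightest, and Crybb2 reached the maximum of 15.40 that all arrays share. Quantile normalization gives the brightest probes nearly the same values on every array, so this sum says little about fibre content. Lens epithelium markers (9 of 12 tested, Fst and Npnt below detection throughout) summed to 9613 on heterozygous array 2 and to 17392 to 26968 on the other 5 arrays. Leucocyte and macrophage markers (9 of 14 tested, Ptprc below detection throughout) summed to 305 to 340 in heterozygous lenses and to 588, 5796 and 1230 on null arrays 4, 5 and 6. Iris and ciliary body markers summed to 12227 to 16927 in heterozygous and 20510 to 25599 in null lenses, nearly all of it from the smooth muscle actin Acta2, while 5 of the 7 tested had the lower mean in null lenses. Erythrocyte markers summed to 225 to 1096 and 256 to 1048, and photoreceptor markers to 425 to 1359 and 1165 to 1647. In such bulk RNA, fewer cells of a type and less RNA per cell cannot be told apart.

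Within the members, heterozygous array 2 was the lowest array of its group for 16 of 27 genes (59.3%, against 46.0% of all genes) and the highest for 9. Null array 5 was the highest of its group for 12 (44.4%, against 34.3%) and the lowest for 10. These counts carry no test. The filter on dim probes also leaned to null arrays. Heterozygous array 2 had the fewest detected probes (12655) and null array 5 the most (16204), against 14203 to 15640 on the others. The part of these arrays in the lean was not tested. Of the 27 tested members, 20 were detected on all 6 arrays and 7 on 3 to 5 arrays, and all 7 were detected on more null than heterozygous arrays. Over all genes tested, 1506 were detected on more null arrays and 443 on more heterozygous arrays.

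Glutathione synthesis and cystine supply was represented by 4 genes, of which 2 had a higher and 2 a lower mean in null lenses (median −0.05). Glutamate-cysteine ligase, the rate-limiting enzyme, is a pair of subunits encoded by Gclc (catalytic) and Gclm (modifier), and their differences had opposite signs. Gclm was 8.52, 9.27 and 8.78 on heterozygous arrays and 9.16, 9.996 and 9.31 on null arrays. Null array 5 was the brightest and null array 4 lay just under heterozygous array 2, so the groups overlapped. The difference was 0.63 ± 0.29 (1.55-fold, limma adjusted p = 0.590), and 0.38 without null array 5. Gclc was 6.30, 5.78 and 5.92 in heterozygous and 5.95, 5.70 and 5.32 in null lenses, a difference of −0.34 ± 0.25 (adjusted p = 0.760), which was −0.19 without heterozygous array 1 and −0.18 without null array 6. Gss, which adds glycine to complete glutathione, differed by −0.19 ± 0.29 at its brightest probe.

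Slc7a11 encodes the xCT subunit of the cystine and glutamate exchanger, which imports the cystine used for glutathione. Its values were 7.25, 4.42 and 7.32 on heterozygous arrays and 6.85, 5.08 and 7.34 on null arrays. Heterozygous array 2 and null array 5 were low in both groups, and the difference of 0.10 ± 0.79 had a 95% interval from −1.69 to 1.88. Without heterozygous array 2 it was −0.88. The summed lens epithelium markers were lowest on these 2 arrays as well, and their part was not tested. A second Slc7a11 probe, detected on all 6 arrays, was 5.64, 5.47 and 5.85 against 5.48, 4.69 and 6.00. It too was lowest on heterozygous array 2 and null array 5 within their groups, but by less. Set against the mean of the other arrays of the group, they stood at −0.28 and −1.05, against −2.86 and −2.01 at the brightest probe. The difference at the second probe was −0.26 ± 0.32 with a 95% interval from −0.99 to 0.46. The brightest probe thus leaves a 2-fold difference unresolved, and the interval of the second, dimmer probe ends just short of it.

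Reduction of glutathione mixed disulfides was represented by Glrx, glutaredoxin, which uses glutathione to release glutathione from protein thiols. With the background correction and offset used here, Glrx had the widest difference among the members, but at 0.47 with no background correction and 0.58 with offset 50 it was below Gstp1 (0.77 and 0.78) and Gclm (0.57 and 0.60). It was 5.05, 4.35 and 5.11 on heterozygous arrays and 5.002, 6.93 and 5.57 on null arrays. Null array 5 was far above the other arrays, and null array 4 lay inside the heterozygous range. The difference was 1.00 ± 0.45 (limma adjusted p = 0.577), and 0.42 without null array 5. The other tested Glrx probe gave 4.73, 4.41 and 4.61 against 5.11, 6.21 and 5.31, a difference of 0.96 ± 0.30 (adjusted p = 0.354) in which the groups did not overlap. It was 0.57 without null array 5, 0.39 with no background correction and 0.49 with offset 50. This probe was detected on 1 heterozygous and 3 null arrays, so its heterozygous values lie at the detection floor. The brightest Glrx probe was detected on 2 heterozygous and 3 null arrays. The leucocyte and macrophage markers followed the same order of null arrays, with a mean log2 level above the heterozygous mean by 0.93, 3.71 and 1.84 on null arrays 4, 5 and 6. Their part in the Glrx values was not tested.

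The 3 glutathione peroxidases, selenoenzymes that reduce peroxides with glutathione, had 1 higher and 2 lower means. Gpx1, the cytosolic enzyme, had the widest difference, with 12.40, 12.61 and 12.74 in heterozygous and 11.99, 12.55 and 12.23 in null lenses. The groups overlapped through null array 5, and the difference was −0.33 ± 0.23 (limma adjusted p = 0.750). It was −0.19 without null array 4 and −0.70 with series matrix values. Gpx4, which reduces lipid hydroperoxides in membranes, differed by 0.14 ± 0.24 at its brighter probe. Gpx3, the secreted enzyme, was near background, detected on 1 heterozygous and 2 null arrays, and differed by −0.01 ± 0.44.

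**Figure D2:**
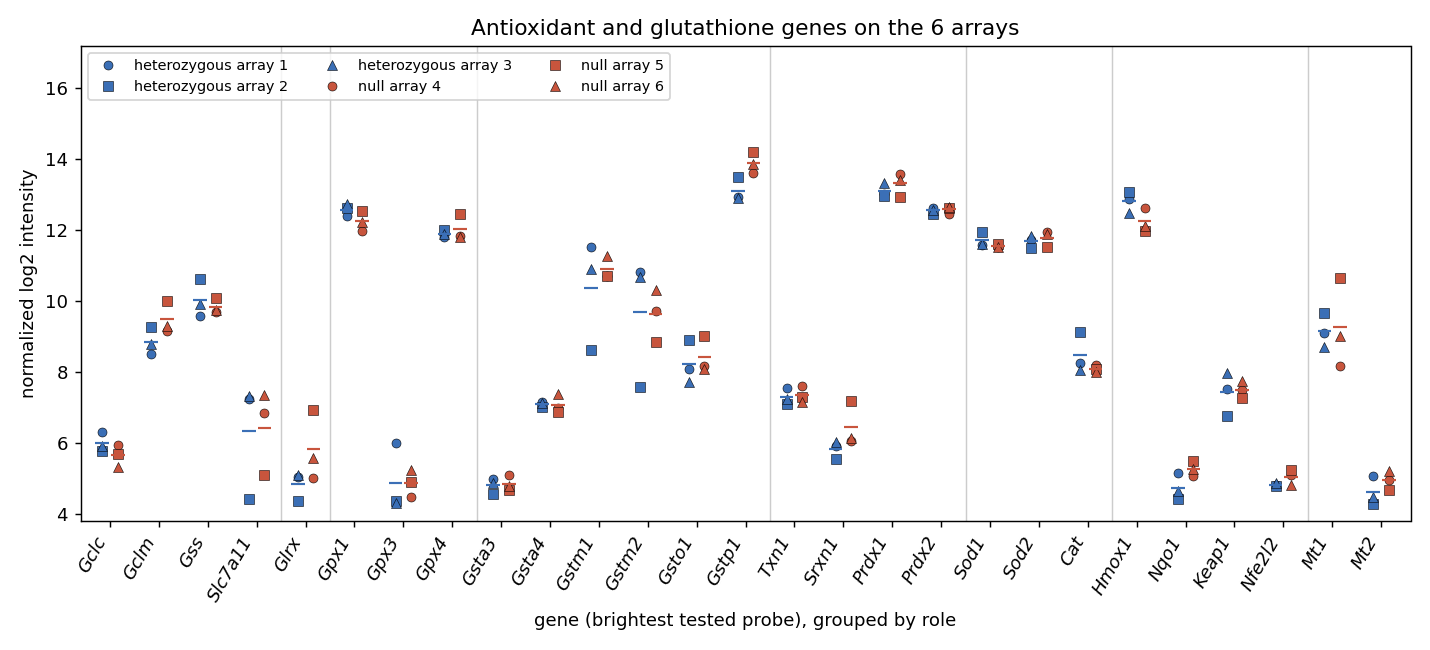
Log2 intensity of the brightest tested probe of each gene on every array, by role, with heterozygous and null arrays in separate colours, a marker shape per array of a group, and the group mean as a bar. Gstp1 lies above its heterozygous values on all 3 null arrays, while Gstm1, Gstm2 and Slc7a11 are spread by heterozygous array 2.

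Among the glutathione S-transferases, which attach glutathione to electrophiles, 6 of 7 genes were tested, 4 with a higher and 2 with a lower mean (median 0.12). Gstp1, the pi-class cytosolic enzyme, was 12.94, 13.49 and 12.90 on heterozygous arrays and 13.61, 14.20 and 13.86 on null arrays. All 3 null arrays lay above all 3 heterozygous arrays. The difference was 0.78 ± 0.25 (1.72-fold, 95% interval 0.21 to 1.35 on the log2 scale), with an unadjusted p of 0.0128 in the limma fit and an adjusted p of 0.392. It was 0.64 without null array 5 and 0.96 without heterozygous array 2. With the authors' series matrix values it was 0.26 (adjusted p = 0.918), and 0.36 at the second probe. The summed leucocyte markers and the summed iris and ciliary body markers also did not overlap between groups, with the higher values in null lenses. The iris and ciliary body sum was nearly all Acta2, and 5 of its 7 tested genes had the lower mean in null lenses. The part of these markers in the Gstp1 difference was not tested.

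A second Gstp1 probe gave the same pattern, 12.29, 12.23 and 11.94 against 12.71, 13.24 and 12.82, a difference of 0.77 ± 0.23 (limma adjusted p = 0.323) without overlap. The dimmest of the 3 gave 7.89, 8.11 and 6.87 against 8.40, 7.93 and 7.90, a difference of 0.45 ± 0.33 with overlap. Gstp2, the neighbouring pi-class gene whose promoter is printed above, was 9.46, 10.32 and 9.70 in heterozygous and 10.49, 11.67 and 10.99 in null lenses. Its groups did not overlap either, and its difference was 1.22 ± 0.34 (2.33-fold, adjusted p = 0.285). Gstp1 and Gstp2 are close paralogues, so signal from one transcript may reach a probe named for the other, and their values are not independent.

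The mu-class genes Gstm1 and Gstm2 were set by 1 array. Gstm1 was 11.53, 8.63 and 10.91 on heterozygous arrays and 10.71, 10.70 and 11.27 on null arrays. Gstm2 was 10.82, 7.57 and 10.68 against 9.72, 8.86 and 10.33. Set against the mean of the other heterozygous arrays, heterozygous array 2 stood at −2.59 for Gstm1 and −3.18 for Gstm2, with −3.34 and −2.81 at the other 2 Gstm2 probes. Their differences of 0.54 ± 0.62 and −0.06 ± 0.77 became −0.32 and −1.10 without that array (limma adjusted p at least 0.414 when any 1 array was left out). The tested lens epithelium markers had a mean log2 level of −1.77 relative to the heterozygous mean on the same array, against 1.07 and 0.69 on heterozygous arrays 1 and 3, and their part in the Gstm values was not tested. Mu-class genes are also close paralogues that probes may share.

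**Figure D3:**
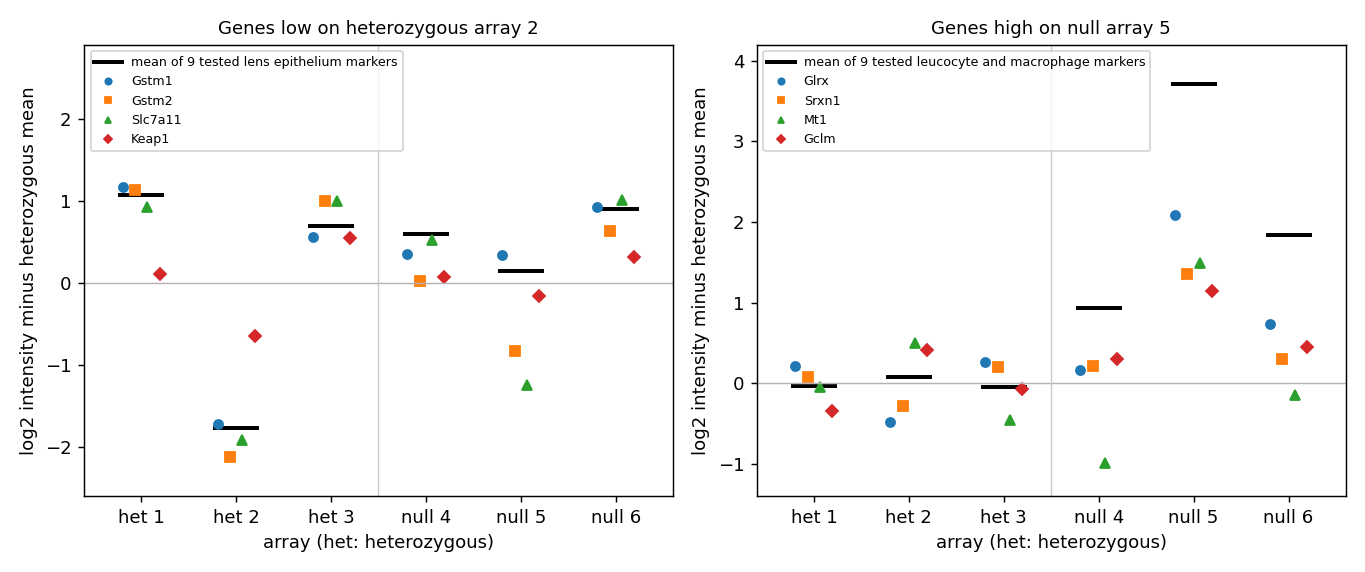
Log2 intensity on each array minus the gene's heterozygous mean. Left, Gstm1, Gstm2, Slc7a11 and Keap1 with the mean of 9 lens epithelium markers as bars, which reaches −1.77 on heterozygous array 2. Right, Glrx, Srxn1, Mt1 and Gclm with the mean of 9 leucocyte and macrophage markers as bars, which reaches 3.71 on null array 5.

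The remaining transferases had differences of 0.20 or less. Gsto1, an omega-class enzyme, differed by 0.20 ± 0.35, and the alpha-class genes Gsta3 and Gsta4 by 0.05 ± 0.22 and −0.02 ± 0.22. Gsta3 was near background, detected on 2 heterozygous and 3 null arrays. The 95% interval of Gsta4 ran from −0.51 to 0.46. Gsta2 was not above background on any of the 6 arrays.

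In the thioredoxin system, which reduces peroxiredoxins and other protein disulfides, 4 of 7 genes were tested and all 4 had a higher mean in null lenses, with a median of 0.14. Srxn1, sulfiredoxin, which repairs over-oxidised peroxiredoxins, was 5.91, 5.55 and 6.03 in heterozygous and 6.04, 7.19 and 6.13 in null lenses. The groups did not overlap, but null arrays 4 and 6 lay just above heterozygous array 3, and null array 5 well above all others. Leucocyte and macrophage markers were highest on that array too, as described for Glrx, and their part was not tested. The difference was 0.62 ± 0.32 (1.54-fold, limma adjusted p = 0.640), 0.25 without null array 5 and 0.35 with no background correction. At the other tested Srxn1 probe, with a difference of 0.60 ± 0.34, the groups overlapped.

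The thiol peroxidase Prdx1 was 13.03, 12.95 and 13.33 in heterozygous and 13.59, 12.94 and 13.42 in null lenses, a difference of 0.21 ± 0.24. The electron donor Txn1, thioredoxin itself, differed by 0.06 ± 0.23. Its reductase Txnrd1 was detected on no heterozygous array and on 1 of 3 null arrays. Its normalised values were 4.52, 4.53 and 4.30 against 4.72, 4.59 and 4.67, too near background to be tested. Msra, which repairs oxidised methionine, was not above background on any array.

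The probes of Prdx2, a peroxiredoxin abundant in red cells and also made in other tissues, disagreed. The brightest was 12.64, 12.46 and 12.58 on heterozygous and 12.46, 12.64 and 12.66 on null arrays, a difference of 0.03 ± 0.20 with a 95% interval from −0.41 to 0.47. The second was 6.75, 6.77 and 6.80 against 7.33, 7.58 and 7.20, a difference of 0.59 ± 0.20 (limma adjusted p = 0.430). The third was 4.96, 4.70 and 4.61 against 6.01, 5.67 and 5.54, a difference of 0.98 ± 0.22 (adjusted p = 0.162). It was detected on 1 heterozygous and 3 null arrays, so its heterozygous values lie at the detection floor, and the difference was 0.39 with no background correction. Groups did not overlap at the dimmer probes and overlapped at the brightest. Which transcript each probe reads was not examined here.

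**Figure D4:**
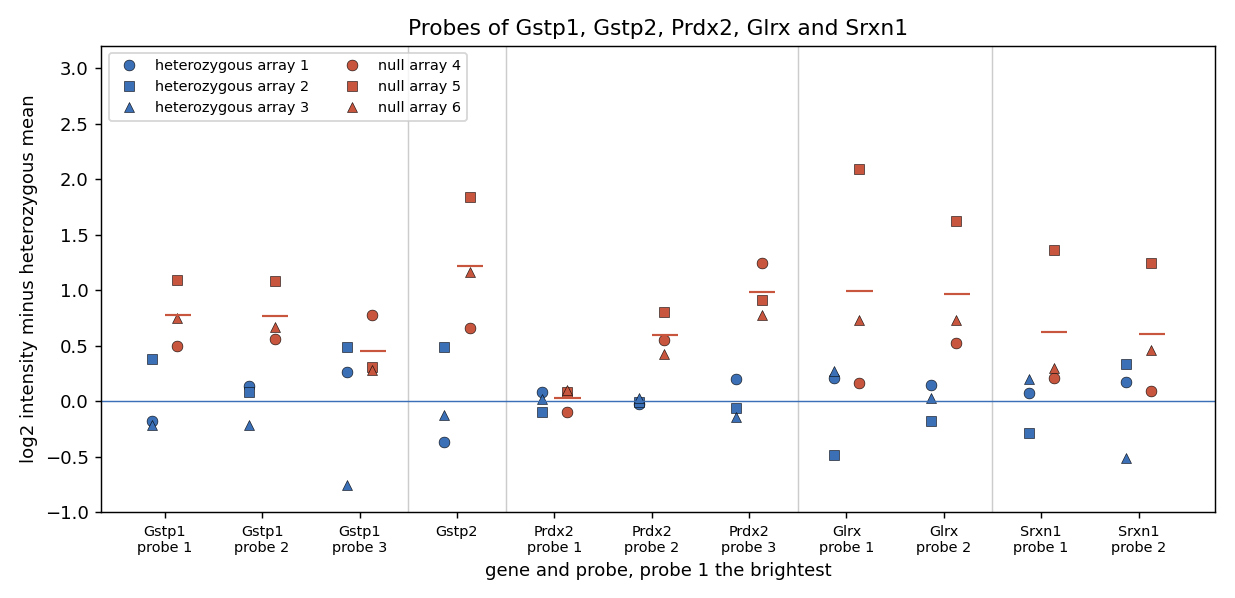
Log2 intensity minus the heterozygous mean of the same probe, on each array, for the tested probes of Gstp1, Gstp2, Prdx2, Glrx and Srxn1, with the null mean as a bar (marker shapes stand for arrays). The null mean of every probe shown lies above 0, from 0.03 at the brightest Prdx2 probe to 1.22 at Gstp2, and null array 5 is the highest array at all Glrx and Srxn1 probes.

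Counted by probe, 6 of 45 tested member probes (13.3%) had non-overlapping groups with higher null values, against 7.43% of all probes, and 0 had lower ones, against 7.86%. These were 2 probes of Gstp1, 2 of Prdx2, and 1 each of Glrx and Srxn1. No member probe passed the adjusted threshold in the limma fit, where 0.174% of all probes did, and 5 (11.1%) had an unadjusted p under 0.05, where 8.7% of all probes did. These shares lie above the background, unlike those counted by gene, but they carry no test. The second Glrx probe and the third Prdx2 probe were detected on 1 heterozygous and 3 null arrays. They thus passed the filter on dim probes through the group in which they were brighter. Probes of a gene share their RNA and are not separate evidence.

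Superoxide dismutases turn superoxide into hydrogen peroxide, which catalase breaks down. Sod1 in the cytosol was 11.58, 11.94 and 11.61 against 11.53, 11.62 and 11.53, a difference of −0.15 ± 0.20. Sod2 in mitochondria was 11.73, 11.50 and 11.83 against 11.95, 11.52 and 11.89, a difference of 0.10 ± 0.22. Both intervals lay within a 2-fold difference, from −0.62 to 0.31 and from −0.39 to 0.59. Cat was 8.24, 9.13 and 8.04 against 8.19, 8.09 and 8.001. Its difference of −0.38 ± 0.29 (limma adjusted p = 0.780) rested on heterozygous array 2, and was −0.05 without it.

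Among inducible enzymes, Hmox1 and Nqo1, both standard Nfe2l2 targets, had differences of opposite sign, neither of them resolved. Hmox1, which degrades haem, was 12.88, 13.08 and 12.48 in heterozygous and 12.64, 11.97 and 12.13 in null lenses. Null array 4 lay above heterozygous array 3, and the difference was −0.57 ± 0.26 (limma adjusted p = 0.584), the lowest of all members with the processing used here. It was −0.28 with array weights, above Gstm2 at −0.71, and −0.96 with series matrix values. Nqo1, a quinone reductase, was 5.15, 4.41 and 4.64 against 5.07, 5.50 and 5.25, a difference of 0.54 ± 0.25 (adjusted p = 0.590), detected on 1 heterozygous and 3 null arrays. Nqo1 thus passed the filter on dim probes through the group in which it was brighter, and its difference was 0.21 with no background correction. The regulators showed no resolved difference. Nfe2l2 differed by 0.22 ± 0.21, but its tested probe was near background, detected on 2 heterozygous and 3 null arrays. Its other probe was detected on no array, so a change of Nfe2l2 could hardly be read here. Keap1 differed by 0.08 ± 0.31 at its brightest probe, with −0.04, −0.09 and −0.12 at its other tested probes.

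The metallothioneins are small cysteine-rich proteins that bind zinc and copper. Mt1 was 9.11, 9.66 and 8.71 in heterozygous and 8.17, 10.65 and 9.01 in null lenses. The null arrays spread wider than the heterozygous arrays on both sides, and the difference of 0.12 ± 0.55 became −0.58 without null array 5. Mt2 was 5.05, 4.29 and 4.47 against 4.95, 4.67 and 5.20, a difference of 0.34 ± 0.26 (limma adjusted p = 0.784), detected on 1 heterozygous and 3 null arrays. It was 0.19 without heterozygous array 2 and 0.15 with no background correction.

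Other genes of the same pathways were read in the same way. Of 82 further genes listed, 61 were tested, 36 with a higher and 25 with a lower mean in null lenses (median 0.12). In the limma fit 0 passed the adjusted threshold, 7 had an unadjusted p under 0.05 (6 higher, 1 lower, 11.5% against 9.14% of all genes), and groups did not overlap for 9 (7 higher, 2 lower, 14.8% against 15.4%). The other glutathione enzymes had 9 of 21 tested genes higher, the other thioredoxin genes 10 of 19, and the other targets and partners of Nfe2l2 17 of 21, with medians of −0.02, 0.00 and 0.23. Over all genes 53.3% were higher, and the lists were not tested against that share.

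Beside Gstp2, the smallest p-values belonged to Mgst1, Txnrd3, Idh1, Ggct and Taldo1. Mgst1, a membrane-bound transferase and peroxidase, was 8.55, 8.49 and 8.60 in heterozygous and 9.24, 9.39 and 9.33 in null lenses. The arrays of each group lay close together, heterozygous array 2 and null array 5 included. The difference was 0.77 ± 0.19 (1.71-fold, limma adjusted p = 0.229), with 0.79 ± 0.21 at a second probe. The NADPH producer Idh1 was 8.07, 8.55 and 8.07 against 8.84, 9.04 and 8.70, a difference of 0.63 ± 0.23 (adjusted p = 0.460) without overlap. Taldo1, of the pentose phosphate pathway, differed by 0.67 ± 0.29, and by 0.40 without heterozygous array 2. The thioredoxin and glutathione reductase Txnrd3 differed by 0.62 ± 0.22, but by 0.23 with no background correction and 0.31 with offset 50. Ggct, which acts in the breakdown of glutathione by the gamma-glutamyl cycle, was 9.82, 10.78 and 9.86 against 9.72, 8.56 and 9.25. Its difference was −0.98 ± 0.36 (adjusted p = 0.464) without overlap, and its other 3 probes, at −0.78, −0.50 and −1.08, overlapped. At the brightest Ggct probe, heterozygous array 2 was the highest array and null array 5 the lowest. Its difference ran from −1.25 to −0.66 when 1 array was left out, and was −0.54 with array weights.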

How the data were processed

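RNA was isolated with a Qiagen RNeasy kit, DNase-treated, and labelled with biotin by an Illumina TotalPrep kit, per the labels' protocols. Per the file headers, the deposited raw table gives an intensity and a detection p-value per probe and array. The intensities are linear, and raw medians of 60.5 to 71.3 show that they were not scaled together. The sources used here do not name scanner or software. Column names carry no replicate number, so arrays were assigned by group. The deposited series matrix holds intensities that are a straight-line rescaling of each raw column, with medians of 64.8 to 66.2. These values are linear, run in the direction of brightness, and were centred by an unknown method; they served as an alternative.

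Intensities were processed with neqc of limma 3.58.1 in R 4.3.3 (normexp background correction from the detection p-values, offset 16, quantile normalization, log2). Background correction widens and the offset narrows differences of dim probes. The 14902 probes with a detection p-value under 0.05 on 3 or more of the 6 arrays were tested with lmFit and eBayes, two-sided, with Benjamini-Hochberg adjustment over all of them and a threshold of 0.05. With no statement that samples are separate animals, p-values measure the spread between samples, and 3 arrays per group limit the precision. Genes were named from the platform annotation, in which 34885 probes had 1 gene, 18 several and 10378 none. Of these names, 34818 matched the RefSeq gene table. A gene is represented by its brightest tested probe. Member values on every array are given where groups do not overlap, where an unadjusted p is under 0.05, for the widest difference in each role, and where only 1 group had detection. Others are given where they are contrasted with these. Of other pathway genes, the 6 with the smallest p are named. Members and lists were chosen with earlier results of these data known. The fit was tested on simulated data with noise independent between probes, in which 5 of 96 calls were of unchanged probes. Promoter alignment used Biopython 1.88. Alternatives covered the dim-probe filter, background correction, offset, scaling, the series matrix with and without replicate numbers, array weights, moderation, the probe chosen, and leaving out arrays. Of 33 members, 27 matched the RefSeq promoter table. Gclc, Gsr, Gsta4, Msra, Prdx6 and Hmox1 did not.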

Additional observations from a re-analysis of the deposited data

How the results depend on the processing

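The count of probes past the threshold over the whole array, 26, was 0 with no filter on dim probes (2759 at an unadjusted p under 0.05), 1 with no background correction, 14 with offset 50, 3 with arrays scaled to one median, 261 with array weights, 111 without heterozygous array 2 and null array 5, and 2 to 30 when 1 array was left out. The cause was not tested. With series matrix values limma called 0, with or without the replicate block (1307 and 1058 at an unadjusted p under 0.05). Array weights called 1 member (Gstp1, adjusted p = 0.0498), 1 other pathway gene (Gstp2, 0.0360) and the third Prdx2 probe (1.07, 0.0205, but 0.39 with no background correction, 0.52 with offset 50 and 0.42 with series matrix values), and the other settings called 0 members. Gstp1 differed by 0.26 (series matrix values) to 0.96 (without heterozygous array 2), with adjusted p 0.0498 to 0.918, and Gstp2 by 0.92 to 1.56. The members' median was 0.36 with median scaling, which moved that of all probes to 0.28, −0.021 without heterozygous array 2 and null array 5, and −0.016 to 0.13 when 1 array was left out, lowest without heterozygous array 2. Of 37 results, each followed over 15 to 17 settings, 20 kept their sign in those run and 17 reversed at least once. Reversed values were, with no background correction, Gpx3 0.012; with offset 50, Slc7a11 −0.0012; with median scaling, Sod1 0.093, Gss 0.17, Gstm2 0.38, Cat 0.059 and Gsta4 0.38; with series matrix values, in both fits, Prdx1 −0.25, Prdx2 −0.35, Gpx4 −0.14, Sod2 −0.12 and Gpx3 0.042; with array weights, Prdx2 −0.017, Gstm1 −0.0049, Keap1 −0.24, Slc7a11 −0.36 and Gpx3 0.11; without heterozygous array 2 and null array 5, Prdx2 −0.046, Gpx4 −0.027, Gstm1 −0.22, Mt1 −0.33, Keap1 −0.14, Txn1 −0.0051, Gsta4 0.039 and Slc7a11 −0.19; and with the mean of a gene's probes, Keap1 −0.042 and Slc7a11 −0.084. When 1 array was left out, reversing genes ranged over −0.31 to 0.52 (Gpx3), −0.079 to 0.25 (Gpx4), −0.43 to 0.10 (Gss), −0.080 to 0.13 (Gsta3), −0.17 to 0.080 (Gsta4), −0.32 to 1.13 (Gstm1), −1.10 to 0.51 (Gstm2), −0.10 to 0.53 (Gsto1), −0.25 to 0.35 (Keap1), −0.58 to 0.66 (Mt1), −0.016 to 0.095 (Prdx2), −0.88 to 0.73 (Slc7a11) and −0.066 to 0.19 (Txn1). Samples with the same replicate number deviated together at r = −0.008, 0.251 and 0.571, and not every sample correlated best with its own number, so the numbers were not taken as pairs. Genes near background are limited by signal rather than by spread alone.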
